A study of Mus musculus with 8 samples.

Results

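SOX9 CUT&Tag coverage was examined at 40 genes that are enriched in astrocytes, among them Aldh1l1, Aldoc, S100b, Slc7a10 and Apoe. The genes were listed by name as astrocyte-enriched, with no threshold on coverage, and all 40 were found among the 21728 protein-coding genes of the mouse annotation on chromosomes 1 to 19 and X. Each gene was read over a promoter window, 1 kb to each side of its transcription start site, and over a gene body window, which ran from 5 kb before to 5 kb after the gene.

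Astrocytes are glial cells of the brain and spinal cord that take up neurotransmitters and potassium, supply neurons with metabolites and contact blood vessels. SOX9 is a transcription factor of the SOX family that takes part in the switch of neural stem cells to glial fates and continues to be made by adult astrocytes. In CUT&Tag, antibodies bring a transposase to a chromatin protein, and the DNA around the bound sites is cleaved and sequenced.

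The nuclei came from spinal cords of adult wild-type (WT) C57BL/6 mice, either uninjured or 1 day after a contusion at T9 (1 d.p.i.). Each condition had a male (M) sample and a female (F) sample. Cords were taken as 5 mm segments around the injury or at the same level, sorted on the DNA dye 7AAD, and 150000 nuclei were used per sample. From each sample, 20% of the nuclei were set aside as secondary-only controls, which did not receive the SOX9 antibody. The study's general sorting method also names stains for NEUN or SOX10, and whether these nuclei received them is not given in the sources used here. The study states the age of its mice as 8 to 12 weeks at entry in the methods and as 2 to 6 months in its reporting summary. For its sequencing experiments in general the study pooled 2 to 4 animals per condition, with as many females as males, and the number in each of these libraries is not given in the sources used here.

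The 4 SOX9 libraries were of unequal depth. On chromosomes 1 to 19 and X they held 1869806 (uninjured M), 7209462 (uninjured F), 2513522 (1 d.p.i. M) and 2381412 (1 d.p.i. F) fragments. The secondary-only controls held 22707, 46637, 52684 and 10892 fragments in the same order. The shallowest SOX9 library thus held at least 35.5 times as many fragments as a control. Coverage of chromosome Y, relative to the autosomes, was 0.310 and 0.173 in the M SOX9 libraries and 0.0269 and 0.0392 in the F SOX9 libraries, with the uninjured library given first. The sexes in the labels thus separated on chromosome Y in the SOX9 libraries. The controls did not separate by sex in that way, with 0.0553 and 0.0735 in M and 0.0600 and 0.0354 in F.

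Values are given as levels, the mean coverage of a window divided by the mean coverage of the library, so that a level of 1 is the library's own mean. At a promoter window, a lone fragment is worth a level of 0.704 (M) or 0.183 (F) in the uninjured SOX9 libraries and of 0.524 (M) or 0.553 (F) at 1 d.p.i. In the controls it is worth between 25 and 121, above the highest mean promoter level of the 40 genes, 21.3, so single promoters cannot be read there.

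CUT&Tag measures no expression, so the label of the tissue was looked at through coverage at genes that mark its cell types. The median promoter level over the 4 SOX9 libraries was 5.40 for 17 other astrocyte genes, led by the potassium channel gene Kcnj10, and 5.91 for 15 neuron markers, led by Tubb3. The 15 oligodendrocyte markers, led by the myelin gene Mbp, had the highest median at 11.1. The median was 1.99 for 15 microglia markers and 1.41 for 15 endothelial and mural markers, led by Vtn. Over gene bodies the medians were 1.65 for the other astrocyte genes, 1.53 for neuron markers, 7.18 for oligodendrocyte markers, 2.15 for microglia markers and 0.789 for endothelial and mural markers.

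The 40 astrocyte genes themselves had a median of 5.13 at promoters and 2.5 over gene bodies. At promoters they were thus close to the other astrocyte genes and the neuron markers and below the oligodendrocyte markers. The samples were whole cord segments, in which fewer cells of a type and less SOX9 signal per cell cannot be told apart. The differences between the lists were not tested.

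The astrocyte genes were compared with the coding genes as a whole, and then with coding genes of like length. Over all coding genes the median level was 3.81 at promoters and 1.54 over gene bodies. Of the 40 astrocyte genes, 35 (87.5%) had a promoter above the library mean, against 74.5% of all coding genes. Over gene bodies it was 31 (77.5%), against 65.1%.

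The genes span 2259 bp (Id3) to 1432965 bp (Gpc5), and each was ranked among the other coding genes whose span differed from its own by at most 25% of the shorter one, or the 200 nearest in length where there were fewer. This gave 200 to 2662 comparators per gene. The median percentile was 60.1 at promoters, with a range from 5.84 (Chrdl1) to 95.4 (Aldoc), and 64.8 over gene bodies, from 0.973 (Chrdl1) to 93.9 (Lfng). In each kind of window 25 of the 40 genes ranked above the median of their comparators. Read in each library alone, the median promoter percentile lay between 54.5 (uninjured M) and 59.5 (1 d.p.i. M), and the median gene body percentile between 58.8 (uninjured F) and 67.2 (1 d.p.i. M).

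Promoters were also split by CpG content, with CpG-rich meaning an observed over expected CpG ratio of at least 0.6 and a GC content of at least 50% in the 1 kb around the start site. Of the astrocyte genes, 16 (40%) were CpG-rich, against 46.5% of all coding genes. The CpG-rich members had a median promoter level of 5.17, below the 7.78 of all CpG-rich genes. The 24 CpG-poor members had a median of 5.01, against 1.20 over all CpG-poor genes. Ranked within its own CpG class, the median member stood at percentile 69.4 at promoters and 67.8 over gene bodies. These medians join both classes. At promoters, only Ndrg2 (80.3) and Id4 (75.1) of the CpG-rich members stood above the median of their class, and the other CpG-rich members stood below it.

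**Figure D1:**
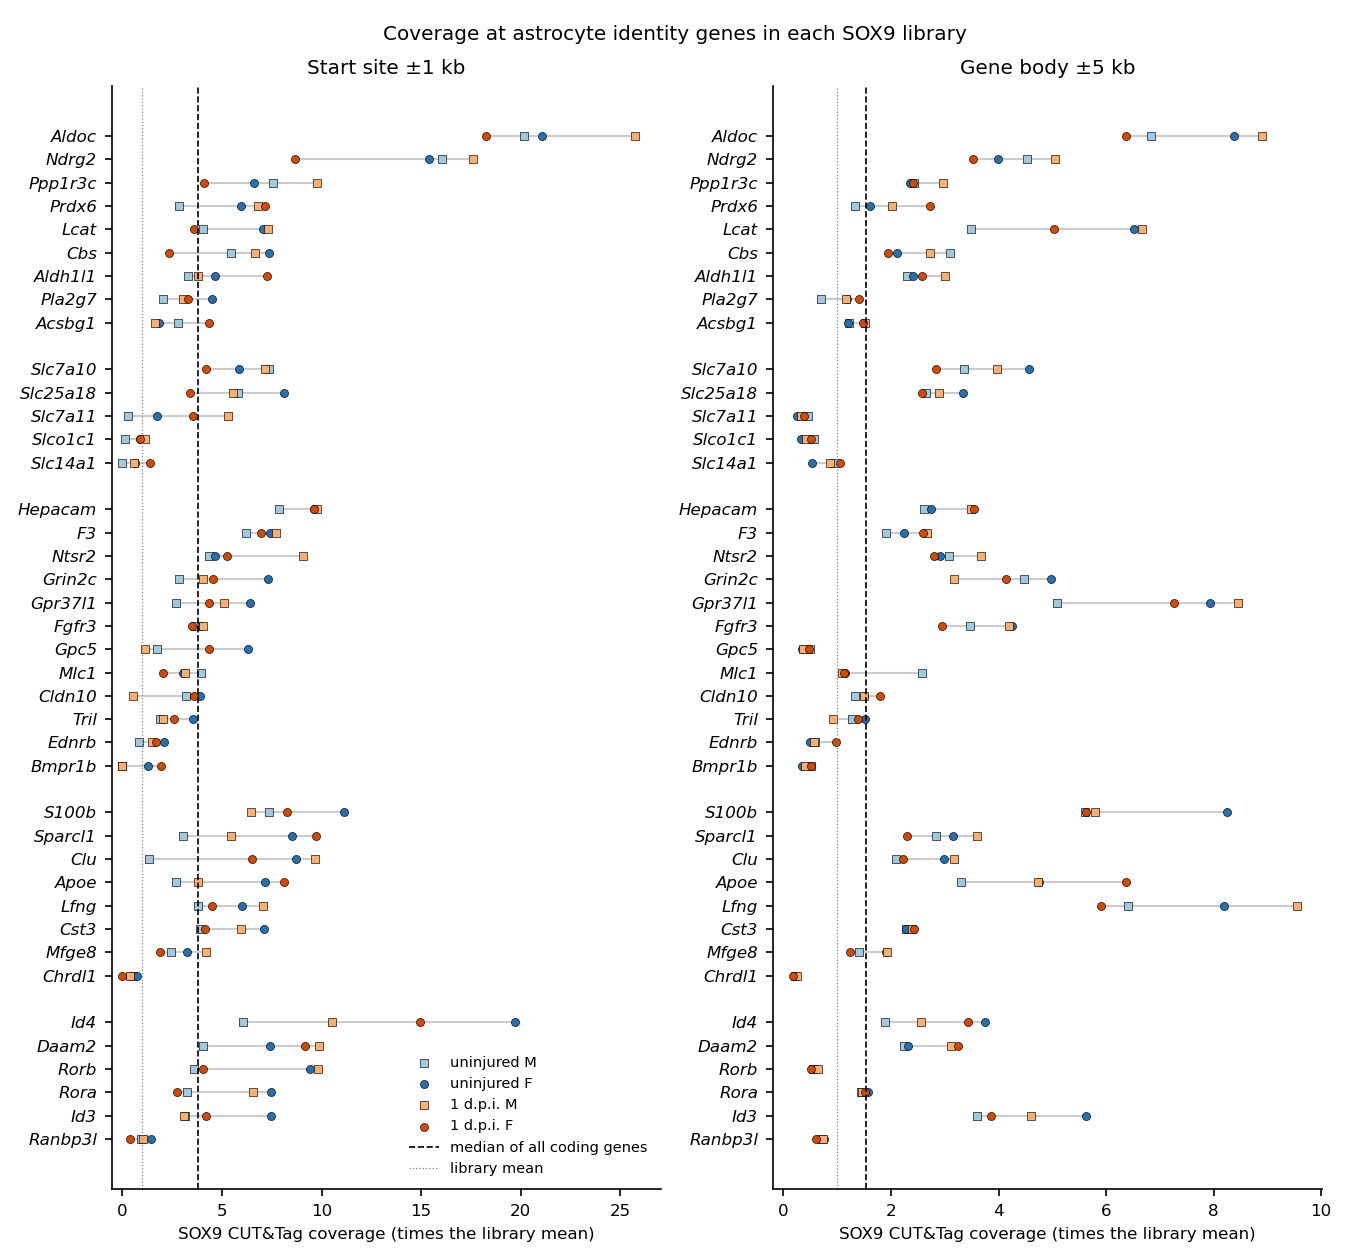
SOX9 CUT&Tag coverage (x axis, times the library mean) of the 40 astrocyte genes (y axis, grouped by role) at promoters (left) and over gene bodies (right), with 1 point for each of the 4 SOX9 libraries. The dashed lines are the medians of all coding genes, 3.81 at promoters and 1.54 over gene bodies, and Aldoc has the highest mean in both windows.

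The enzymes and other metabolic genes, 9 in number, had a median promoter percentile of 61.6 and a gene body percentile of 67.1. Aldoc, the brain form of the glycolytic enzyme aldolase, had the highest mean of the 40 genes in both windows. Its promoter level was 20.2 (uninjured M), 21.1 (uninjured F), 25.8 (1 d.p.i. M) and 18.2 (1 d.p.i. F). Over its gene body the levels were 6.84 (uninjured M), 8.37 (uninjured F), 8.90 (1 d.p.i. M) and 6.37 (1 d.p.i. F). The libraries of both conditions overlapped, and in every SOX9 library the Aldoc promoter was far above the median promoter.

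Ndrg2, a gene of the N-myc downstream-regulated family that is abundant in astrocytes, was the next highest promoter. It had levels of 16.0 (uninjured M), 15.4 (uninjured F), 17.6 (1 d.p.i. M) and 8.66 (1 d.p.i. F). The F library at 1 d.p.i. was the low one of the 4. Aldh1l1, an enzyme of folate metabolism that is widely used to label astrocytes, was lower, at 3.30 (uninjured M), 4.67 (uninjured F), 3.80 (1 d.p.i. M) and 7.23 (1 d.p.i. F). Its promoter stood at percentile 47.7 among genes of like length and its gene body at 84.1.

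Lcat, which esterifies cholesterol on lipoproteins, had a promoter level of 5.50 and a gene body level of 5.42 as means of the 4 libraries. Ppp1r3c, a subunit that targets a phosphatase to glycogen, had a promoter mean of 6.99. Prdx6, a peroxiredoxin that reduces peroxides, had 5.69, and Cbs, which makes cystathionine from homocysteine, 5.44. The lowest promoter means of the group were 3.21 in Pla2g7, a phospholipase that degrades platelet-activating factor, and 2.64 in Acsbg1, an acyl-CoA synthetase. All 9 promoters of the group were above the library mean.

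The 5 transporter and carrier genes had a median percentile of 30.5 at promoters and 22.6 over gene bodies. The genes ranked far apart: Slc7a10 (61.2 at promoters, 75.2 over gene bodies) and Slc25a18 (59.0 and 72.5) were above the median of their comparators in both windows, and the other 3 below it. Slc7a10, a transporter of small neutral amino acids such as serine and glycine, had the highest promoter level of the group. It was at 7.38 (uninjured M), 5.87 (uninjured F), 7.16 (1 d.p.i. M) and 4.18 (1 d.p.i. F). Slc25a18, a mitochondrial glutamate carrier, had a promoter mean of 5.72. The F libraries of Slc7a10 were below the M libraries in both conditions.

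The other 3 transporter genes lay near or below the library mean in some or all libraries. Slc7a11 encodes the cystine and glutamate exchanger. Its promoter was at 0.269 (uninjured M), 1.71 (uninjured F), 5.28 (1 d.p.i. M) and 3.56 (1 d.p.i. F). These levels rest on 1, 7, 9 and 5 fragments in the same order, and both libraries at 1 d.p.i. lay above both uninjured ones. Slc14a1, a urea transporter, had levels at the start site used here of 0 (uninjured M), 0.613 (uninjured F), 0.596 (1 d.p.i. M) and 1.39 (1 d.p.i. F). A count of 0 fragments in the uninjured M library allows a level of up to 2.1, taken as 3 fragments and covering counting error only, so the libraries cannot be put in order. At another start site of Slc14a1 the highest 200-bp tile was at 11.0 in the uninjured M library and at 1.23, 4.00 and 4.19 in the others, in the same order. A fragment that covers a whole tile is worth 5.50 (uninjured M), 1.64 (uninjured F), 4.00 (1 d.p.i. M) and 4.19 (1 d.p.i. F). These tile levels thus rest on few fragments. Slco1c1, which carries thyroid hormone, had a mean promoter level of 0.757.

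Receptors and other membrane proteins were the largest group, with 12 genes and a median percentile of 48.8 at promoters and 56.0 over gene bodies. Hepacam, a cell adhesion protein that binds Mlc1, had the highest promoter level of the group. It was at 7.88 (uninjured M), 9.63 (uninjured F), 9.76 (1 d.p.i. M) and 9.61 (1 d.p.i. F). Gpr37l1, an orphan G protein-coupled receptor, had the highest gene body of the group. Its levels there were 5.09 (uninjured M), 7.93 (uninjured F), 8.45 (1 d.p.i. M) and 7.26 (1 d.p.i. F). Both genes had 1 low library, the uninjured M.

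F3, the tissue factor that starts blood clotting, had a promoter mean of 7.05, and Ntsr2, a neurotensin receptor, 5.82. The means were 4.68 in the NMDA receptor subunit gene Grin2c, 3.78 in the fibroblast growth factor receptor gene Fgfr3 and 3.03 in Mlc1, which encodes a membrane protein of astrocyte endfeet. Gpc5, a heparan sulfate proteoglycan, had 3.38, Cldn10, a claudin, 2.80, and Tril, an accessory protein of Toll-like receptors, 2.52. The lowest were the endothelin receptor gene Ednrb with 1.51 and the BMP receptor gene Bmpr1b with 0.795. Bmpr1b had 0 coverage at the start site used here in both M libraries and levels of 1.26 and 1.92 in the F libraries. A count of 0 allows levels of up to 2.1 and 1.57 in those M libraries. The F values rest on 9 and 3 fragments and were not tested against the M values. A tile at another start site of Bmpr1b was at 7.18 (uninjured M), 1.64 (uninjured F), 6.90 (1 d.p.i. M) and 4.19 (1 d.p.i. F), so the M libraries were not without coverage at every start site. The levels of this tile also rest on few fragments.

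Of the secreted and calcium-binding proteins, 8 in number, the median percentile was 63.9 at promoters and 67.8 over gene bodies. S100b, a calcium-binding protein used as an astrocyte marker, had promoter levels of 7.36 (uninjured M), 11.1 (uninjured F), 6.44 (1 d.p.i. M) and 8.28 (1 d.p.i. F). Apoe, the main apolipoprotein made by astrocytes, had promoter levels of 2.67 (uninjured M), 7.16 (uninjured F), 3.81 (1 d.p.i. M) and 8.12 (1 d.p.i. F). At both promoters the F library was above the M library in each condition.

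Clu, the secreted chaperone clusterin, had 1 library far from the others at its promoter. It was at 1.36 (uninjured M), 8.73 (uninjured F), 9.69 (1 d.p.i. M) and 6.48 (1 d.p.i. F), and the low uninjured M value rests on 2 fragments. Sparcl1, a matrix protein that acts on synapses, had a promoter mean of 6.69, Lfng, a glycosyltransferase that modifies Notch, 5.34, and the protease inhibitor Cst3 5.27. Mfge8, which bridges dying cells to phagocytes, had 2.95. Lfng had a higher rank over its gene body, with levels of 6.40 (uninjured M), 8.20 (uninjured F), 9.54 (1 d.p.i. M) and 5.91 (1 d.p.i. F).

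Chrdl1, a BMP antagonist and the only member on chromosome X, was the lowest of the 40 genes in both windows. Its promoter was at 0.511 (uninjured M), 0.752 (uninjured F), 0.388 (1 d.p.i. M) and 0 (1 d.p.i. F), and over the gene body no SOX9 library was above 0.254. The promoter values rest on 7 fragments in all, and the 0 in the F library at 1 d.p.i. allows a level of up to 1.66. Chromosome X as a whole was covered at 0.347 (M) and 0.276 (F) of the autosomes in the uninjured SOX9 libraries and at 0.283 and 0.386 in those at 1 d.p.i., so the F libraries did not have a higher relative coverage of X in both conditions. The part of the low chromosome X coverage in the rank of Chrdl1 was not tested.

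The transcription and signalling regulators, 6 in number, had the highest median percentiles of the 5 role groups, at 64.5 at promoters and 70.4 over gene bodies. Id4, an inhibitor of basic helix-loop-helix factors, had promoter levels of 6.04 (uninjured M), 19.7 (uninjured F), 10.5 (1 d.p.i. M) and 14.9 (1 d.p.i. F). The uninjured libraries lay to both sides of those at 1 d.p.i. Its relative Id3 had a promoter mean of 4.47. Daam2, a formin of Wnt signalling, had 7.63, and the nuclear receptor genes Rorb and Rora had 6.73 and 5.00. Ranbp3l, a nuclear export factor, had 0.938, the lowest of the group.

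**Figure D2:**
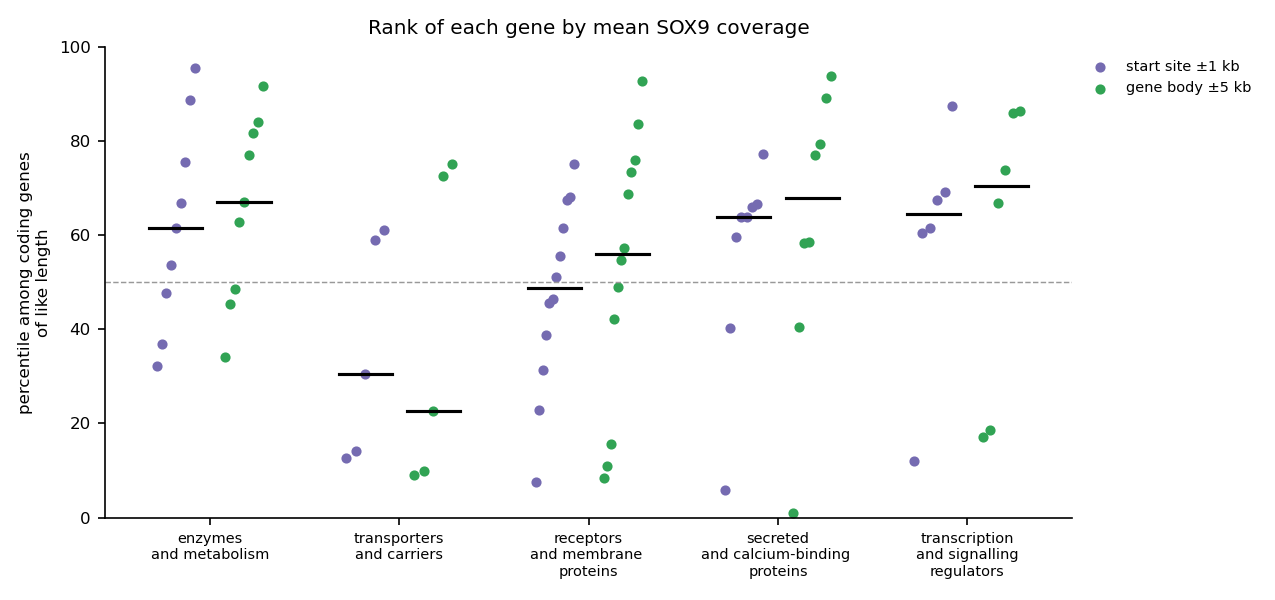
Percentile of each astrocyte gene by mean SOX9 coverage among coding genes of like length (y axis), by role (x axis), at promoters (purple) and over gene bodies (green), with 1 point per gene and a bar at the median of each group. The transporters have the lowest medians, 30.5 and 22.6, and the regulators the highest, 64.5 and 70.4.

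The comparison between conditions asked whether SOX9 coverage at astrocyte genes differed between uninjured and injured cords. Of the 40 genes, none was called by limma at an adjusted p under 0.05 in either window. At promoters, 39 of the 40 genes passed the filter of a mean level of at least 0.5, all but Chrdl1, and 0 of these 39 were called higher and 0 lower. Over all coding genes 2 of 18117 promoters were called higher (0.011%) and 0 lower (0%). Over gene bodies 35 of the 40 genes were tested, all but Chrdl1, Slc7a11, Gpc5, Bmpr1b and Slco1c1, and 0 were called in either direction. Among all gene bodies 1 of 17601 was called higher (0.00568%) and 0 lower (0%). With 2 libraries against 2, the smallest p of an exact two-sided permutation test for a single value is 0.33, so no such test was read.

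At an unadjusted limma p under 0.05, 1 of the 39 promoters was higher at 1 d.p.i., where 0.889% of all tested promoters were, and 0 were lower, against 0.938%. The promoter was that of Slc7a11, whose log2 change was 1.89 with a standard error of 0.74 (unadjusted p = 0.0100, adjusted p = 1.00, limma). It was 1.13 without the uninjured M library and 2.65 without the uninjured F library. Over gene bodies 1 of the 35 genes was higher, against 2.34% of all tested gene bodies, and 1 was lower, against 1.74%. Prdx6 had a change of 0.53 with a standard error of 0.20 (unadjusted p = 0.0127, adjusted p = 0.866, limma). Its change was 0.71 without the 1 d.p.i. M library and 0.35 without the 1 d.p.i. F library. Mlc1 had a change of -0.48 with a standard error of 0.22 (unadjusted p = 0.0396, adjusted p = 1.00, limma). None of these passed the threshold after adjustment. Changes are on the scale of log2(level + 0.5), which understates those of genes with low levels.

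The libraries of both conditions did not overlap at few promoters. Each 1 d.p.i. library exceeded each uninjured library at 4 of the 40 promoters, where 8.23% of all coding genes had that order, and was below each at 2, against 14.1%. The 4 were Slc7a11, Daam2, Prdx6 and Ntsr2, and the 2 were Slc25a18 and Chrdl1. Chrdl1 counts only through its 0, which allows a level above both uninjured values, so its libraries cannot be put in order. The Daam2 promoter was at 4.06 (uninjured M), 7.41 (uninjured F), 9.88 (1 d.p.i. M) and 9.18 (1 d.p.i. F), a log2 change of 0.74 with a standard error of 0.66. The Prdx6 promoter was at 2.86 (uninjured M), 5.93 (uninjured F), 6.83 (1 d.p.i. M) and 7.16 (1 d.p.i. F), with a log2 change of 0.69. In each case the uninjured M library was the lowest of the 4, and without it the change was 0.34 in Daam2 and 0.22 in Prdx6.

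The remaining promoters of that kind had smaller gaps. Ntsr2 was at 4.33 (uninjured M), 4.65 (uninjured F), 9.07 (1 d.p.i. M) and 5.24 (1 d.p.i. F), so that only the M library stood well apart. Slc25a18 was at 5.82 (uninjured M), 8.12 (uninjured F), 5.55 (1 d.p.i. M) and 3.4 (1 d.p.i. F), so that only the F libraries were well apart.

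Over gene bodies, each 1 d.p.i. library exceeded each uninjured library at 8 of the 40 genes, where 12.9% of all coding genes had that order, and was below each at 2, against 13.7%. The 8 were Prdx6, Daam2, Hepacam, F3, Acsbg1, Aldh1l1, Cldn10 and Cst3, and the 2 were Mlc1 and Grin2c. In Cldn10 the nearest libraries were almost tied, at 1.496 (uninjured F) and 1.504 (1 d.p.i. M). The log2 change of Cst3 was only 0.063. Without flanks the counts were 5 higher and 4 lower, and no share of all coding genes is given for that window. The Prdx6 gene body was at 1.32 (uninjured M), 1.62 (uninjured F), 2.01 (1 d.p.i. M) and 2.72 (1 d.p.i. F). The Daam2 gene body was at 2.25 (uninjured M), 2.31 (uninjured F), 3.11 (1 d.p.i. M) and 3.25 (1 d.p.i. F), a log2 change of 0.40 with a standard error of 0.23 (unadjusted p = 0.0969, limma). Prdx6 and Daam2 were the genes for which the order held in both windows. The gene body window holds the promoter window and is read from the same libraries, so these are not separate observations.

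Hepacam, with gene body levels of 2.62 (uninjured M), 2.74 (uninjured F), 3.48 (1 d.p.i. M) and 3.55 (1 d.p.i. F), had a log2 change of 0.33. F3 was at 1.90 (uninjured M), 2.24 (uninjured F), 2.68 (1 d.p.i. M) and 2.60 (1 d.p.i. F), a change of 0.29. The F3 change was 0.19 without the uninjured M library and 0.39 without the uninjured F library. With the libraries thinned to equal depth, the change became 0.54 in F3 and 0.27 in Hepacam. In Hepacam the sexes lay closer together than the conditions did. Mlc1 was at 2.58 (uninjured M), 1.14 (uninjured F), 1.1 (1 d.p.i. M) and 1.12 (1 d.p.i. F), so its lower value came from 1 high library, the uninjured M. Grin2c was at 4.47 (uninjured M), 4.97 (uninjured F), 3.18 (1 d.p.i. M) and 4.14 (1 d.p.i. F), a change of -0.34, which was -0.17 without the 1 d.p.i. M library.

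The median log2 change of the 40 promoters was 0.05, against -0.05 over all coding genes, and that of the gene bodies was 0.05, against -0.02. The gene body median was 0.01 without the 1 d.p.i. M library and 0.11 without the 1 d.p.i. F library. With the libraries thinned to equal depth it was -0.01. The sexes went opposite ways. Between the M libraries the median promoter change was 0.39 in the 40 genes and 0.31 in all coding genes, and between the F libraries it was -0.40 and -0.45. Over gene bodies the members' medians were 0.21 (M) and -0.06 (F), against 0.06 and -0.08 over all coding genes. The median promoter change was -0.30 without the uninjured M library and 0.34 without the uninjured F library, so leaving out the uninjured M library turned its direction. It was also below 0 when the libraries were thinned to equal depth, at -0.06, and with 2.5 kb to each side, at -0.006.

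Coverage at markers of other cells was also compared between the conditions. The median promoter change was 0.17 in the 17 other astrocyte genes, -0.22 in neuron markers, -0.08 in oligodendrocyte markers, 0.65 in microglia markers and 0.14 in endothelial and mural markers, and 0 genes of these lists were called by limma in either direction. At an unadjusted p under 0.05 there were likewise 0 promoters in these 5 lists. The median promoter levels of the microglia markers in the libraries were 0.841 (uninjured M), 2.02 (uninjured F), 2.1 (1 d.p.i. M) and 2.29 (1 d.p.i. F). Their part in the values of the astrocyte genes was not tested. Over gene bodies the median changes were 0.17 in the other astrocyte genes, -0.11 in neuron markers, -0.11 in oligodendrocyte markers, 0.12 in microglia markers and -0.02 in endothelial and mural markers. Of these gene bodies 0 were called by limma. At an unadjusted p under 0.05, 1 gene was higher among the other astrocyte genes, 1 was higher and 1 lower among microglia markers, and 1 was higher and 1 lower among endothelial and mural markers.

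The order of the libraries was counted in these lists as well. At promoters, each 1 d.p.i. library exceeded each uninjured one at 2 of 17 other astrocyte genes, 2 of 15 neuron, 0 of 15 oligodendrocyte, 5 of 15 microglia and 4 of 15 endothelial and mural markers, against 8.23% of all coding genes. The opposite order held at 3, 5, 3, 1 and 3 of them, against 14.1%. Over gene bodies the counts higher at 1 d.p.i. were 8, 2, 1, 6 and 2 in the same order of lists, against 12.9%, and those lower were 1, 6, 3, 2 and 2, against 13.7%.

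**Figure D3:**
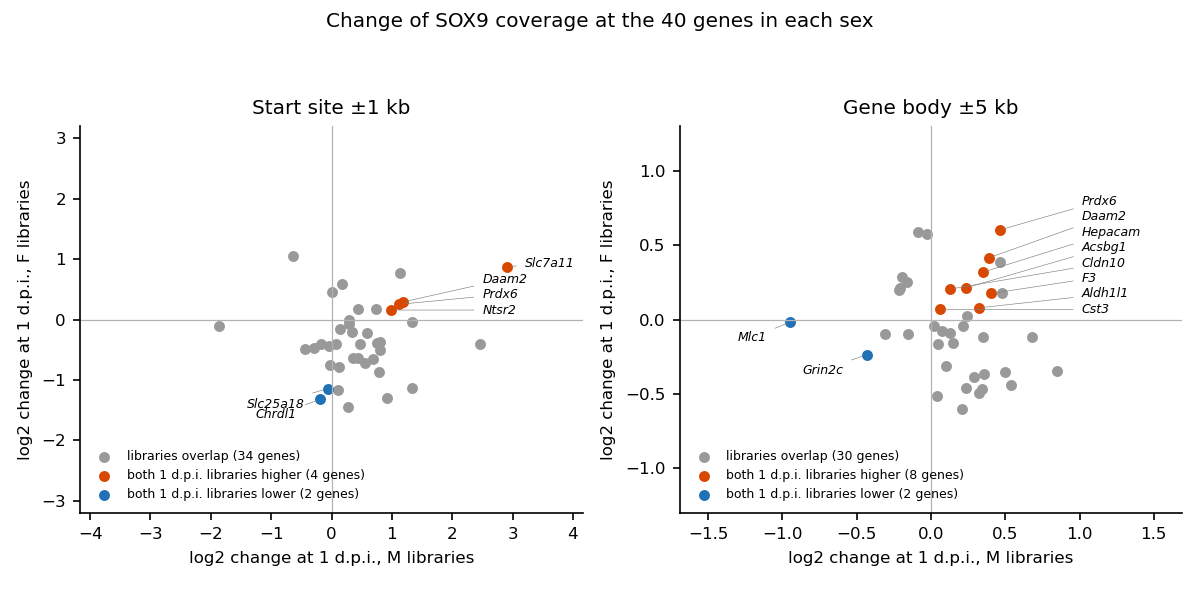
Log2 change of SOX9 coverage at 1 d.p.i. between the M libraries (x axis) and between the F libraries (y axis) for the 40 astrocyte genes, with 1 point per gene, at promoters (left) and over gene bodies (right). Genes whose libraries do not overlap between conditions are coloured and named, 4 higher and 2 lower at promoters and 8 higher and 2 lower over gene bodies. Of all coding genes, 8.23% had the higher order and 14.1% the lower at promoters, and 12.9% and 13.7% over gene bodies. At the Chrdl1 promoter this order rests on a count of 0 fragments in 1 library.

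Within each gene, the highest 200-bp tile between 5 kb before and 5 kb after the gene was taken as its summit, by the mean of the 4 SOX9 libraries. The summit lay in a promoter window of the gene in 22 of the 40 genes (55%), in an exon in 1 (2.5%), in an intron in 10 (25%) and in a flank in 7 (17.5%). Over all coding genes the shares were 49.0%, 4.67%, 19.7% and 26.6%. The median summit level was 14.1, against 12.4, and in 34 of the 40 genes (85%) the tile was above the library mean in all 4 SOX9 libraries, against 67.9%. The same tile was the highest in each of the 4 libraries for Aldoc, Aldh1l1 and Id4, which is 7.5% of the genes, against 6.98%. Control fragments numbered 7 over the 40 summit tiles and fell in 6 of them.

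The letters of motifs were searched in the summit tiles on both strands, among them the SOX core ACAAT and the AP-1-like pattern TGANTCA, which is looser than the AP-1 consensus because its central base may be any. The SOX core was present in 5 of the 40 tiles (12.5%), against 18.6% over the summit tiles of all coding genes, and the AP-1-like pattern in 4 (10%), against 4.03%. The full palindromic NFI motif, also searched, was in no tile of any coding gene and so gives no comparison. A tile without the letters says nothing about whether the factor was there.

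The highest promoter tiles are shown to give the DNA at the centre of the strongest start sites. They are read from the plus strand of GRCm38 (mm10), with the letters of a SOX core in capitals where there is one. The Aldoc tile, chr11:78322801-78323000, has its centre 68 bp from the start site and levels of 59.0 (uninjured M), 58.0 (uninjured F), 75.3 (1 d.p.i. M) and 54.4 (1 d.p.i. F). The Id4 tile, chr13:48260801-48261000, has its centre 328 bp from a start site, with levels of 17.8 (uninjured M), 66.2 (uninjured F), 27.8 (1 d.p.i. M) and 39.2 (1 d.p.i. F). The Ndrg2 tile, chr14:51914201-51914400, lies 142 bp from a start site of this minus-strand gene, with levels of 36.8 (uninjured M), 26.0 (uninjured F), 40.1 (1 d.p.i. M) and 16.1 (1 d.p.i. F). The Aldoc tile alone holds a SOX core, read as ATTGT on this strand.
Aldoc promoter: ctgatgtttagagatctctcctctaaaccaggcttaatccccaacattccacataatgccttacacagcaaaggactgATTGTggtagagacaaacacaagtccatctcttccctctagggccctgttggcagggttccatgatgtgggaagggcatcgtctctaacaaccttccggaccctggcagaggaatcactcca
Id4 promoter: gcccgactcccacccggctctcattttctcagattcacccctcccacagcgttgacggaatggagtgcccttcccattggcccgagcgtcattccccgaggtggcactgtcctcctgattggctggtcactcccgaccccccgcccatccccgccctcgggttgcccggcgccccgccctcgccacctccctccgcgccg
Ndrg2 promoter: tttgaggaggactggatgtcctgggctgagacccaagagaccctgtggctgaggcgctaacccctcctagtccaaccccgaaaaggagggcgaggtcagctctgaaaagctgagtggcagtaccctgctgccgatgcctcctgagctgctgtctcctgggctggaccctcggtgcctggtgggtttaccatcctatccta

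**Figure D4:**
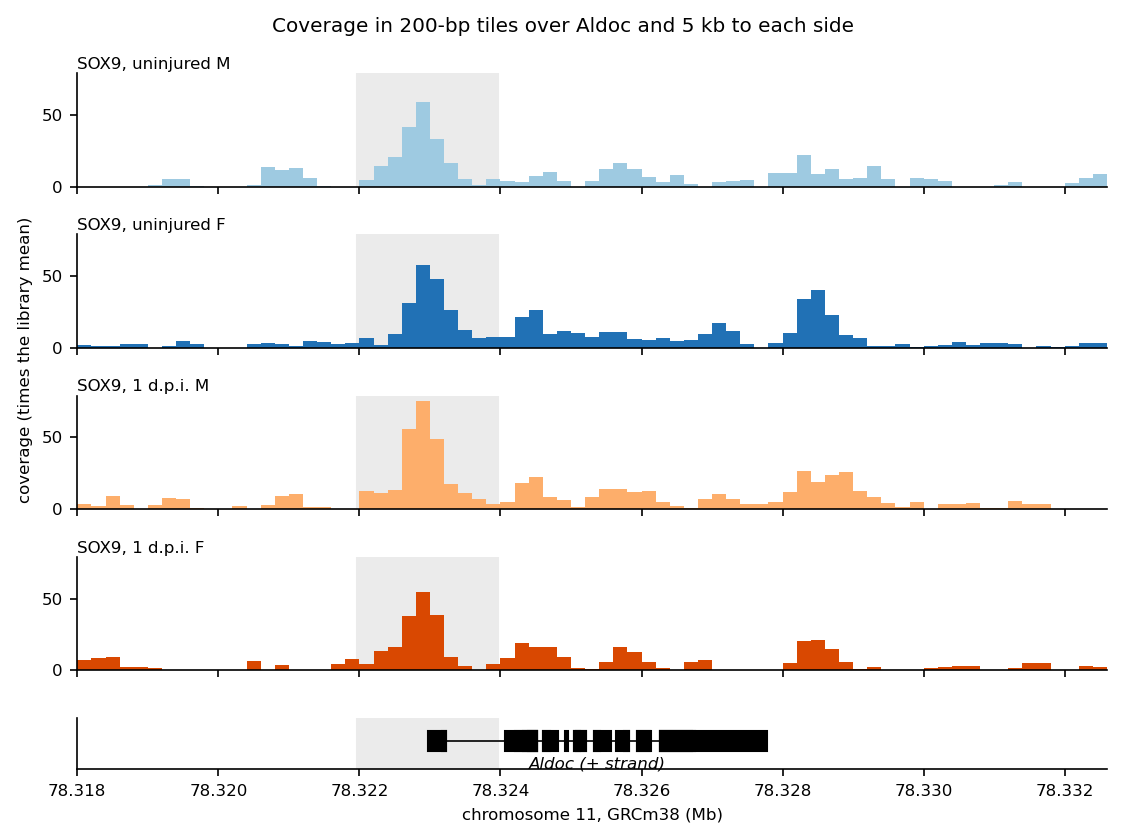
SOX9 coverage (y axis, times the library mean) in 200-bp tiles along chromosome 11 (x axis, Mb, GRCm38) over Aldoc and 5 kb to each side, in 1 panel for each of the 4 SOX9 libraries, with the promoter window shaded and exons as boxes. The highest tile is the same in all 4 libraries, with levels of 59.0, 58.0, 75.3 and 54.4 from top to bottom.

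Outside the promoter windows of the gene itself, the highest tiles belonged to Aldh1l1, Gpr37l1 and Ranbp3l. The Aldh1l1 tile, chr6:90604601-90604800, had a mean level of 45.6 and its centre 25 bp from a start site of the neighbouring gene Slc41a3. The Ranbp3l tile, chr15:9071201-9071400, had a mean of 39.4 and lay 40 bp from a start site of the neighbour Nadk2. These tiles thus sit at promoters of other genes. The Gpr37l1 tile, chr1:135159001-135159200, was in the flank past the end of this minus-strand gene, 8581 bp from its start site. It had levels of 29.6 (uninjured M), 28.1 (uninjured F), 75.6 (1 d.p.i. M) and 33.0 (1 d.p.i. F). Within Aldh1l1, the highest tile away from any start site was in an intron at chr6:90535201-90535400, 15489 bp from a start site, with a mean of 23.9.

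Because of those neighbours, the highest tiles more than 1 kb from the start site of any coding gene were also taken, a step chosen after the data were seen. They belonged to Gpr37l1, Rora and Lfng. The Rora tile, in an intron at chr9:69100001-69100200, had a mean of 39.0 and consisted of short repeats, with 100% of its bases masked as repeats in the genome file. The Lfng tile, in an intron at chr5:140611201-140611400 of this plus-strand gene, had levels of 16.9 (uninjured M), 37.7 (uninjured F), 45.7 (1 d.p.i. M) and 36.5 (1 d.p.i. F). The uninjured M library was again the lowest. The Gpr37l1 and Lfng tiles are printed from the plus strand of GRCm38 as the highest distal tiles that were not repeats, and the capitals in Lfng mark the SOX core ACAAT and the letters TGATTCA, which fit the looser AP-1-like pattern and not the consensus.
Gpr37l1 flank: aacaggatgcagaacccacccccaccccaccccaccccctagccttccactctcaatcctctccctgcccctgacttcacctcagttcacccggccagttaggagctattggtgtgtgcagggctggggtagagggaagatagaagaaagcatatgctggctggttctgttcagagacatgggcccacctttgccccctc
Lfng intron: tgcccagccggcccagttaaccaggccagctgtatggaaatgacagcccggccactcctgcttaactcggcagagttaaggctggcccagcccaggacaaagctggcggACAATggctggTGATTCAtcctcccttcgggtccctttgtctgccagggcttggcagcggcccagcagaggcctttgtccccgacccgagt

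Between conditions, the summit tile was higher in both libraries at 1 d.p.i. than in both uninjured ones for 9 of the 40 genes, where 10.5% of all coding genes had that order, and lower for 5, against 13.4%. Tiles were not tested. A fragment that covers a whole tile is worth a level of 5.50 (uninjured M), 1.64 (uninjured F), 4.00 (1 d.p.i. M) and 4.19 (1 d.p.i. F), so these levels rest on few fragments. Some tiles whose libraries overlapped had larger changes, up to 2.66 in Clu, whose tile had 0 fragments in the uninjured M library. The tiles of Cldn10, Apoe and Acsbg1 had the largest log2 changes among the 9, and they were chosen after their values were seen. The Cldn10 tile, in an intron at chr14:118802401-118802600, was at 11.0 (uninjured M), 9.14 (uninjured F), 52.7 (1 d.p.i. M) and 45.7 (1 d.p.i. F), a log2 change of 2.24. The Apoe tile lies at chr7:19701001-19701200, in the flank 1912 bp upstream of the start site of this minus-strand gene. It was at 3.41 (uninjured M), 6.37 (uninjured F), 24.1 (1 d.p.i. M) and 20.8 (1 d.p.i. F), a change of 2.1. The Acsbg1 tile, at chr9:54664801-54665000 and 3030 bp upstream of the start site of that minus-strand gene, was at 5.42 (uninjured M), 3.29 (uninjured F), 12.1 (1 d.p.i. M) and 18.1 (1 d.p.i. F), a change of 1.69. The fragments in the 4 libraries, in the same order, numbered 2, 11, 15 and 15 in the Cldn10 tile, 3, 7, 9 and 8 in the Apoe tile and 1, 3, 4 and 5 in the Acsbg1 tile. Since they were picked for their change, the separation of the conditions in these tiles was built in.

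These 3 sequences are shown because their tiles had the largest changes among the 9 without overlap, and none holds the searched letters. They are again from the plus strand of GRCm38. The Cldn10 tile is a tandem repeat: shifted by 19 bp, 96.1% of its bases matched themselves. At its best shift the Apoe tile matched at 35.5% and the Acsbg1 tile at 35.5%. The part of the repeat in the Cldn10 values was not tested.
Cldn10 intron: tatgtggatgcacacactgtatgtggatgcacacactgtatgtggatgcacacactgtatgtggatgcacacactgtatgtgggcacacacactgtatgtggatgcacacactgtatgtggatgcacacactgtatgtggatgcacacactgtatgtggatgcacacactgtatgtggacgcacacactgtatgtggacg
Apoe flank: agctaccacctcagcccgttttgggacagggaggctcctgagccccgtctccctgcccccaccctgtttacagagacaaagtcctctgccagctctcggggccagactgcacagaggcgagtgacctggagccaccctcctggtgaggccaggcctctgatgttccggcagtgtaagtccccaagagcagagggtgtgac
Acsbg1 flank: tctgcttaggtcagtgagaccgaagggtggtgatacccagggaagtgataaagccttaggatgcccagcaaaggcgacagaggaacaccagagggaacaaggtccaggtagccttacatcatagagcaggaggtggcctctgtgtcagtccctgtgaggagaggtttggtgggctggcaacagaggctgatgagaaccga

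Coverage over the 40 genes together could be read in the secondary-only controls as well, although it rests on few fragments. Summed over the 40 promoters, the level was 4.08 (uninjured M), 6.41 (uninjured F), 5.85 (1 d.p.i. M) and 5.03 (1 d.p.i. F) with the antibody. In the controls it was 4.21 (uninjured M), 2.91 (uninjured F), 5.31 (1 d.p.i. M) and 9.75 (1 d.p.i. F), from 18 fragments in all. The mean was 5.34 ± 1.02 (SD, n = 4) with the antibody and 5.55 ± 2.97 (SD, n = 4) without it, a ratio of 0.963.

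Summed over the gene bodies, the level was 1.09 (uninjured M), 1.1 (uninjured F), 1.15 (1 d.p.i. M) and 1.13 (1 d.p.i. F) with the antibody. It was 1.06 (M) and 1.02 (F) in the uninjured controls and 1.14 (M) and 1.44 (F) in those at 1 d.p.i., from 270 fragments. The ratio of the means was 0.959.

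Many of the control fragments had ends that also occurred in SOX9 libraries. Of the 18 control fragments in the promoter windows, 17 (94.4%) had a start and an end that both occurred in 1 SOX9 library, and of the 270 in the gene bodies 242 (89.6%) did. When the control fragments were shifted by 1000 bp, 0 did in either window. The start and the end were looked up separately, so it was not shown that the same fragments occur in both. The ratios near 1 rest on these 18 and 270 control fragments. The cause of the shared ends, and what the antibody adds to coverage at these genes, were not tested.

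Among the 40 genes, promoter and gene body levels went together with a Spearman correlation of 0.65 (n = 40 genes from the same 4 libraries), against 0.80 over the 21728 coding genes. The gene body window holds the promoter window of the same gene, so these levels share coverage. Mean levels of the uninjured and the 1 d.p.i. libraries correlated at 0.84 at promoters and 0.97 over gene bodies, against 0.95 and 0.98 over all coding genes. The change between the M libraries and the change between the F libraries correlated at 0.19 at promoters and -0.16 over gene bodies, against -0.12 and -0.28. The order of the genes by level was thus much alike in both conditions, while the changes were not alike in both sexes.

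Gene body level went down with gene length in the astrocyte genes, with a Spearman correlation of -0.72 (n = 40), against -0.03 over all coding genes. The genes with the highest gene body levels were Aldoc, Lfng, Gpr37l1 and S100b, which span 4814, 8226, 7448 and 7307 bp, and the lowest were Chrdl1, Slc7a11 and Gpc5, which span 108589, 551089 and 1432965 bp. Promoter level also went down with length in the astrocyte genes, at -0.45, against 0.21 over all coding genes. What lies behind these correlations was not tested. Promoter level and the CpG ratio correlated at 0.04 in the astrocyte genes, against 0.71 over all coding genes.

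No promoter window of the 40 genes held the start site of another coding gene, while 22 gene body windows overlapped another coding gene. Examples are Pigs and Spag5 beside Aldoc, Tomm40 and Apoc1 beside Apoe, and Slc41a3 beside Aldh1l1. Coverage of those gene bodies includes signal of the neighbours.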

How the data were processed

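The values deposited by the authors are signal: for each library, how many fragments cover each stretch of mm10 (GRCm38), not scaled for depth. Per the submitters' processing notes, Bowtie2 2.5.4, Picard 3.4.0 and SEACR 1.3 were used on mm10. The step that wrote the coverage is not given in the sources used here. Groups come from the sample labels. The M and F samples are different animals, so sex and animal cannot be told apart, and p-values measure the spread between such libraries.

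Window coverage was divided by the library mean over chromosomes 1 to 19 and X. Genes and start sites (APPRIS principal) are from GENCODE M21, and sequences from GRCm38. Promoter windows reached 1000 bp to each side and gene bodies 5000 bp past each end. For the 4 SOX9 libraries, log2(level + 0.5) was fitted with limma (version 3.58.1, R 4.3.3) and a mean-variance trend, over genes with a mean level of at least 0.5 and with Benjamini-Hochberg adjustment over all genes tested. Genes at an adjusted p under 0.05 were called. Each step up in coverage was taken as the start of a fragment, and starts were matched to ends by position. Python 3.11.15, numpy 2.4.6, pandas 2.3.3, scipy 1.17.1 and pysam 0.24.0 were used, and the steps were tested on simulated data.

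Aldh1l1, Aldoc, S100b, Slc7a10 and Apoe were always named. To these came the 5 highest and 3 lowest members at promoters, the 4 highest and 3 lowest over gene bodies, members past the limma threshold, and, of members whose libraries did not overlap between conditions, the 5 with the largest change in each direction at promoters and the 4 over gene bodies. Sequences were to be the 3 highest promoter tiles and the 3 highest tiles outside. Other members are given as part of their role list, and further tiles were chosen after their values were seen. The marker lists were other astrocyte genes and markers of neurons, oligodendrocytes, microglia, and endothelial and mural cells. The members and lists were chosen with earlier results of these data known. Alternatives covered the pseudocount, filter, trend, scaling, window, depth, block, libraries, like-length rule and each library left out.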

Additional observations from a re-analysis of the deposited data

Results flagged for a closer look

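The M and F libraries moved in opposite directions between the conditions. The median log2 change of the 40 astrocyte genes at promoters was 0.39 in M and -0.40 in F. Over gene bodies it was 0.21 in M and -0.06 in F. Over all coding genes the promoter medians were 0.31 (M) and -0.45 (F), so at promoters the astrocyte genes moved with the other genes in each sex. The gene body medians over all coding genes were 0.06 (M) and -0.08 (F), so the M median of the astrocyte genes was the higher one. The uninjured M library was the shallowest of the SOX9 libraries, with 1869806 fragments, and the uninjured F library the deepest, with 7209462, and the part of depth in these medians was not tested. Each sex had 1 library in a condition, and the difference between M and F was not tested.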

How the results depend on the processing

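In all, 397 comparisons with an alternative were made. Of 141 medians and counts, 107 stayed within the spread between libraries or within 1.5 times, and 34 did not; of 256 changes of named genes, 12 moved beyond that spread and 26 changed sign, 21 of them when a library was left out. The promoters called higher, 2 in all, became 1 with a pseudocount of 1, 0 with all 8 libraries in the fit, 0 with no filter, 1 after thinning, 1 with the start of the gene as start site, 0 with 500 bp to each side and 0 to 0 without any 1 library. The gene bodies called higher, 1 in all, became 0 with all 8 libraries, 0 without the trend, 20 with median scaling, 0 after thinning, 0 without flanks, 0 with the start site left out, and 0 to 14 without 1 library. The gene bodies called lower, 0 in all (307 at an unadjusted limma p under 0.05), became 4 with median scaling and 0 to 5 without 1 library. With sex as a replicate block, the calls were 1 promoter higher, 24 gene bodies higher and 4 lower; 0 of these were among the 40 genes. Libraries of a sex share that sex but come from different animals and are not paired, and their deviations correlated at -0.10 at promoters and -0.28 over gene bodies in all coding genes, and at 0.30 and -0.14 in the 40 genes. The crossed pairing, chosen after seeing the data, gave 2 promoters and 1 gene body higher and 0 lower in both. The cause was not tested. For the astrocyte genes, the median promoter level became 3.39 with 2.5 kb to each side. In that window 4 of their promoters were lower without overlap, and no share of all coding genes is given for it. The promoter percentile became 69.4 within the CpG class, and the gene body level 1.86 with the start site left out. Gene bodies without overlap became 5 higher and 4 lower without flanks, and those lower became 1 after thinning and 1 with the start site left out. No share of all coding genes is given for these alternatives, so the counts are not set against one. The median gene body change was -0.01 after thinning. The depth of the controls limits what they show at single genes.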
